A study of Mus musculus with 5 samples.

Results

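Jchain (ENSMUSG00000067149), the gene of the joining chain of polymeric antibodies, was followed by name across 5 single-cell libraries of mouse plasma cells. It is 1 of 33456 genes in the count tables. Plasma cells are terminally differentiated B lineage cells that secrete antibody. These came from untreated, unimmunized male C57Bl6/N mice aged 8 to 12 weeks. They were sorted for high CD138 and for absence of Ly6g and CD11c, and cells of 3 mice were pooled for each library. The splenic groups without tracer uptake were B220+2NBDG- and B220-2NBDG-, those with uptake were B220+2NBDG+ and B220-2NBDG+, and the bone marrow group was B220-2NBDG+. B220 is a form of the surface protein CD45, and 2NBDG is a fluorescent glucose analog whose uptake was used as a gate. Each group was 1 library, and the labels do not tell whether different libraries used different mice. Differences between libraries therefore have no replicate check, and p-values for differences within libraries hold only for these libraries.

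The J chain is a small protein that joins antibody units through disulfide bonds into the IgM pentamer and the IgA dimer. Polymers that hold it are bound by the polymeric immunoglobulin receptor and carried across epithelia into secretions. IgG is secreted as a monomer, in which the J chain has no known place, yet plasma cells of IgG class are known to transcribe the gene.

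Jchain lies on the minus strand of chromosome 5 at 88519809 to 88527891 (GRCm38) and overlaps no other gene of the GENCODE M21 annotation. Its promoter, 300 bases around the RefSeq transcript start at 88527897, is chr5:88527848-88528147 on the minus strand (RefSeq, GRCm38.p6). It is shown because some transcription factors measured below, among them Xbp1 and Ets1, belong to families whose motifs were searched in it. Capitals mark matches to the E-box CANNTG and to ACGTG, the core bound by XBP1 and other bZIP factors, on either strand.
Jchain promoter: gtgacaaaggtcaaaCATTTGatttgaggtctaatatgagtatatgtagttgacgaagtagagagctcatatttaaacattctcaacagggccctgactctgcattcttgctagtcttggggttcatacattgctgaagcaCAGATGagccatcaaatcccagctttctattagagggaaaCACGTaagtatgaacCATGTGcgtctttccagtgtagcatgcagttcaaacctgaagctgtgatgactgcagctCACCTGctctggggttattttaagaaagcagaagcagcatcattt
The E-box was matched 4 times, and 72.3% of 32851 promoters of this length held at least 1 match. ACGTG was matched once, as CACGT, at 69 bases before the start; 19.6% of promoters held it. The ETS core GGAA had 2 matches (96.0% of promoters), neither of which overlapped the motifs in capitals. The ETS-IRF composite motif and the octamer ATGCAAAT had no match in this window (2.72% and 1.74% of promoters).

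The libraries held 9451886 to 15591435 UMIs (unique molecular identifiers, each standing for 1 captured transcript) and 894 to 1296 cell barcodes. All 5476 barcodes passed the filter, 16 T cell-like cells were set aside, and 5460 cells were used; 11 of 5465 distinct barcodes occurred in more than 1 library. The 10 plasma cell markers were all detected in each library. Summed markers of T cells (10 genes) lay at 7.34 to 16.5 UMIs per 1000000 non-immunoglobulin UMIs (CPM), with 3 to 6 of them at 0. Those of naive or memory B cells (7 genes) lay at 105 to 310 CPM, and Pax5, a defining gene of that stage, at 0 to 0.182 CPM. Those of plasmacytoid dendritic cells (5 genes) summed to 1231 and 1305 CPM in the B220+ libraries and 2337 to 2478 CPM in the B220- ones. Ly6d held most of that sum (742 to 2114 CPM), and Siglech, the defining marker, was at 0 to 0.182 CPM. The libraries also split in a way that no gate follows: the ribosomal pseudogene Rps18-ps3 was at 272 and 85.1 CPM in the B220+2NBDG- and splenic B220-2NBDG+ libraries and at 4.74 to 12.4 CPM in the other 3.

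Jchain was the most abundant non-immunoglobulin transcript by UMI count in each of the 5 libraries, and every cell held at least 1 Jchain UMI. T cell-like cells also held some, as described below. Immunoglobulin transcripts took 47.0% to 64.8% of UMIs, so levels are given as a share of the non-immunoglobulin UMIs. Summed over cells, Jchain made up 10.1% of them in splenic B220+2NBDG- cells (exact Poisson 95% interval 10.0 to 10.1), 23.1% in B220-2NBDG- (23.1 to 23.1), 19.4% in B220+2NBDG+ (19.3 to 19.4), 27.0% in B220-2NBDG+ (27.0 to 27.1) and 29.7% in bone marrow (29.6 to 29.7). These intervals, like all counting intervals below, cover counting error only. The next gene by UMIs in each library was Malat1, a nuclear non-coding RNA, at 2.36% to 3.44%.

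The spread between cells was far wider than the counting error. The share per cell ran from 0.113% through a median of 10.6% to 56.8% in B220+2NBDG- cells, and from 0.747% through 24.4% to 62.7% in B220-2NBDG- cells. It ran from 1.63% through 18.7% to 64.2% in B220+2NBDG+ cells and from 3.35% through 26.8% to 66.9% in splenic B220-2NBDG+ cells. In bone marrow it ran from 2.37% through 32.2% to 68.0%. The ranges overlapped widely, and the coefficient of variation over cells was 0.799 in B220+2NBDG- cells against 0.401 to 0.548 in the other libraries.

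**Figure D1:**
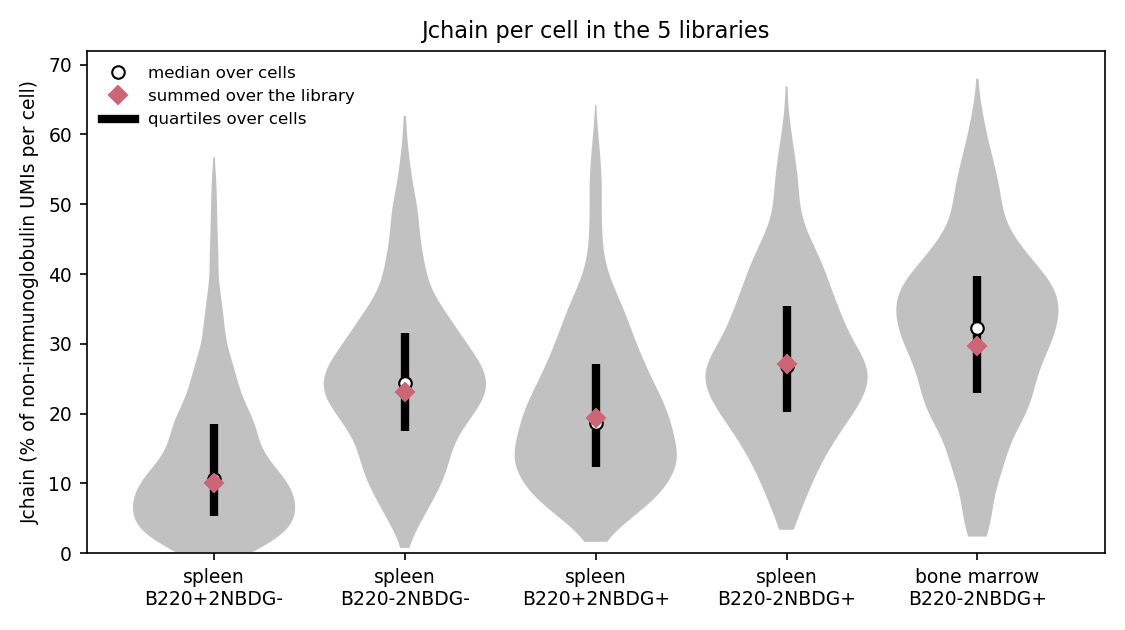
Share of non-immunoglobulin UMIs that were Jchain (vertical axis, %) in each cell of the 5 libraries (horizontal axis); grey shapes show the distribution over cells, white circles the median, black bars the quartiles and diamonds the share summed over the library. B220+2NBDG- cells had the lowest median (10.6%) and bone marrow cells the highest (32.2%), with overlapping ranges.

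IgG cells had less Jchain than IgM cells in all 5 libraries, and IgA cells had more than IgG cells in all 5. A cell was assigned an isotype when at least 70% of its heavy-chain constant UMIs, and at least 10 of them, came from 1 gene. In IgM cells Jchain took 11.6% of non-immunoglobulin UMIs in splenic B220+2NBDG- (705 cells), 24.6% in B220-2NBDG- (1076), 22.2% in B220+2NBDG+ (441), 25.3% in B220-2NBDG+ (558) and 21.7% in bone marrow (293). In IgG cells the shares were 7.70% (417 cells), 14.2% (74), 14.4% (552), 16.8% (117) and 14.4% (84) in the same order. IgG cells thus lay 1.51-, 1.74-, 1.54-, 1.51- and 1.51-fold below the IgM cells of their own library. Across libraries the 2 sets of values overlapped, since the IgM cells of B220+2NBDG- lay below 4 of the 5 IgG values.

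In IgA cells Jchain took 10.7% in B220+2NBDG- (77 cells), 17.8% in B220-2NBDG- (135), 33.0% in B220+2NBDG+ (97), 36.8% in splenic B220-2NBDG+ (214) and 37.5% in bone marrow (553). The IgA cells of the 2NBDG+ libraries were above the IgM cells of the same library, and those of the 2NBDG- libraries were not. As a share of all UMIs, IgA cells were above IgM cells in B220+2NBDG- (6.74% against 5.95%) and below in B220-2NBDG- (8.49% against 8.74%). Of the IgA cells, 49.4%, 28.1%, 82.5%, 90.2% and 97.3% lay above the median IgM cell of their library, in the order above. For IgG cells this was 31.7%, 12.2%, 17.0%, 20.5% and 19.0%.

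UMIs were summed by isotype within each library and compared with the quasi-likelihood test of edgeR blocked by library, with p-values adjusted by Benjamini-Hochberg over all 7945 genes tested. This test draws its estimate of the spread partly from all genes, so its p-values do not measure the spread of Jchain alone. Jchain was lower in IgG than in IgM cells by a log2 change of -0.69 (SE 0.16, adjusted p = 0.00785), in a comparison in which 6.15% of genes passed. Of 29 cell cycle genes tested, 10 were higher and 0 lower in IgG cells (median log2 change 0.87), against 2.49% and 3.66% of all genes. Without the cycling cells described below, the change in Jchain was -0.63 (SE 0.16, adjusted p = 0.0188). It was higher in IgA than in IgG cells by 1.10 (SE 0.16, adjusted p = 6.05e-05), where 9.59% of genes passed. Between IgA and IgM cells the difference of 0.40 (SE 0.16) missed the threshold (adjusted p = 0.110; 13.1% of genes passed). In an exact two-sided sign-flip test over the 5 libraries, IgG against IgM gave a mean log2 ratio of -0.64 ± 0.09 (SD) and IgA against IgG 0.90 ± 0.47, both at p = 0.0625. That is the smallest p that 5 libraries allow. IgA against IgM gave 0.26 ± 0.53 (3 of 5 higher, exact p = 0.375). DESeq2, and edgeR without the library block, gave nearly the same changes for IgG against IgM (-0.68 and -0.68) and for IgA against IgG (1.09 and 1.23) but did not call them (adjusted p = 0.632 and 0.591, and 0.228 and 0.102). IgA against IgM passed when either 2NBDG- library was left out (0.54, adjusted p = 0.0455 without B220+2NBDG-; 0.62, adjusted p = 0.00499 without B220-2NBDG-).

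**Figure D2:**
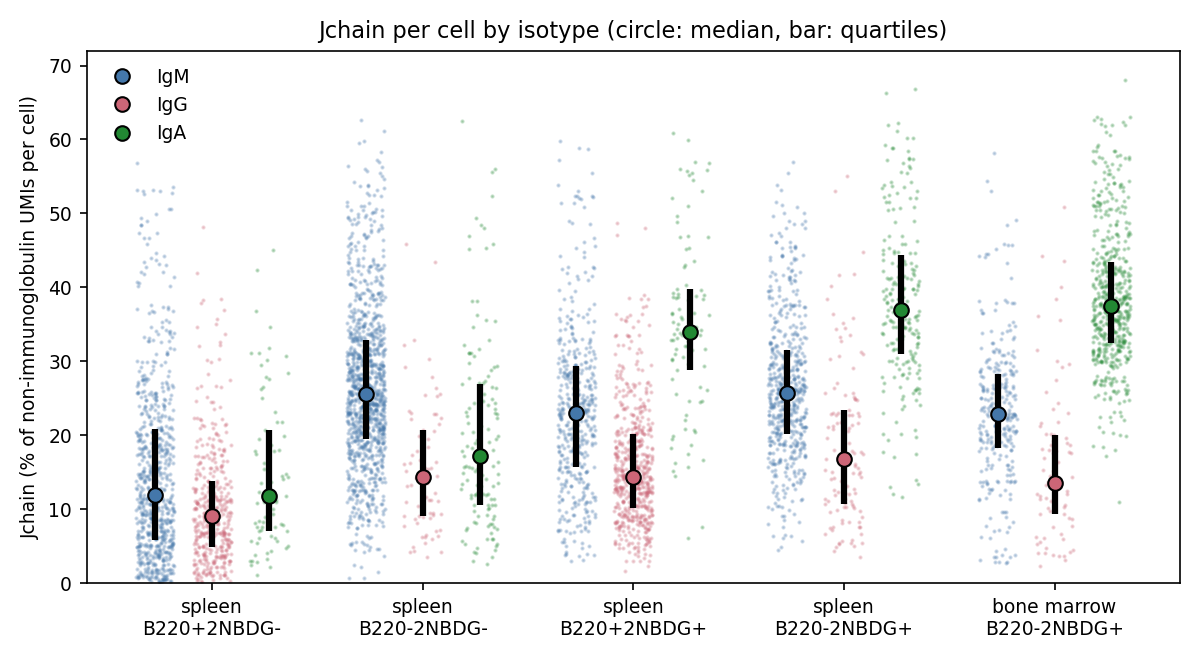
Share of non-immunoglobulin UMIs that were Jchain (vertical axis, %) in cells of IgM, IgG and IgA class in each library (horizontal axis); small points are cells, circles medians and bars quartiles. IgA medians lay above IgM medians in the 3 2NBDG+ libraries (34.0%, 36.9% and 37.5% against 23.0%, 25.7% and 22.9%) and not in the 2 2NBDG- libraries (11.8% and 17.2% against 11.9% and 25.5%).

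The difference between IgA and IgM cells was not the same in libraries sorted with and without 2NBDG uptake. The log2 ratio of IgA to IgM shares was -0.12 in B220+2NBDG- and -0.47 in B220-2NBDG- cells, 0.57 in B220+2NBDG+ cells, 0.54 in splenic B220-2NBDG+ cells and 0.79 in bone marrow. The 2 groups of libraries did not overlap. An interaction term in edgeR, chosen after these ratios were seen, gave a log2 difference of 1.21 (SE 0.16, adjusted p = 1.28e-05), in a comparison in which 2.24% of 7945 genes passed. With all UMIs as the total it was 0.56, still called. Relative to heavy-chain UMIs, IgA cells were above IgM cells in every library, as given below. Over the 5 library ratios, the means were 0.63 with and -0.29 without 2NBDG, and the exact two-sided permutation p was 0.1, the smallest that 10 splits allow. By the library split seen in Rps18-ps3, the difference was 0.66 between its 2 libraries, which also differ in B220, and 1.15 among the other 3. Since the ratios did not overlap, both values had to be positive and are no check on that split. For IgG against IgM cells the same interaction was 0.17 (SE 0.16, adjusted p = 1.0), and it turned to -0.020 with all UMIs as the total; no gene of 7945 passed in edgeR in that comparison (0%), and 292 had an unadjusted p under 0.05.

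Relative to heavy-chain transcripts, the isotypes kept 1 order in every library, with IgA highest and IgG lowest. Per 100 heavy-chain constant UMIs, B220+2NBDG- cells held 36.7 Jchain UMIs when IgM, 28.4 when IgG and 60.0 when IgA. The values were 63.7, 33.4 and 74.9 in B220-2NBDG- cells and 44.2, 24.2 and 76.3 in B220+2NBDG+ cells. They were 57.5, 31.6 and 89.0 in splenic B220-2NBDG+ cells and 56.6, 39.8 and 93.0 in bone marrow. In the 2NBDG- libraries, where the share of non-immunoglobulin UMIs was not higher in IgA than in IgM cells, the IgA cells also had a lower immunoglobulin content: 37.0% against 48.8% of all UMIs in B220+2NBDG- and 52.3% against 64.5% in B220-2NBDG-. In the 2NBDG+ libraries IgA and IgM cells were closer in this respect (62.9% against 64.0%, 56.9% against 58.0%, and 62.7% against 59.6%). No test was made of these ratios. Heavy-chain UMIs of other classes were 0.967% to 7.10% of those in IgM cells, 1.76% to 8.68% in IgG cells and 2.84% to 10.1% in IgA cells. The ratio rests on a different main heavy-chain gene in each isotype, and the capture of these genes was not compared.

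**Figure D3:**
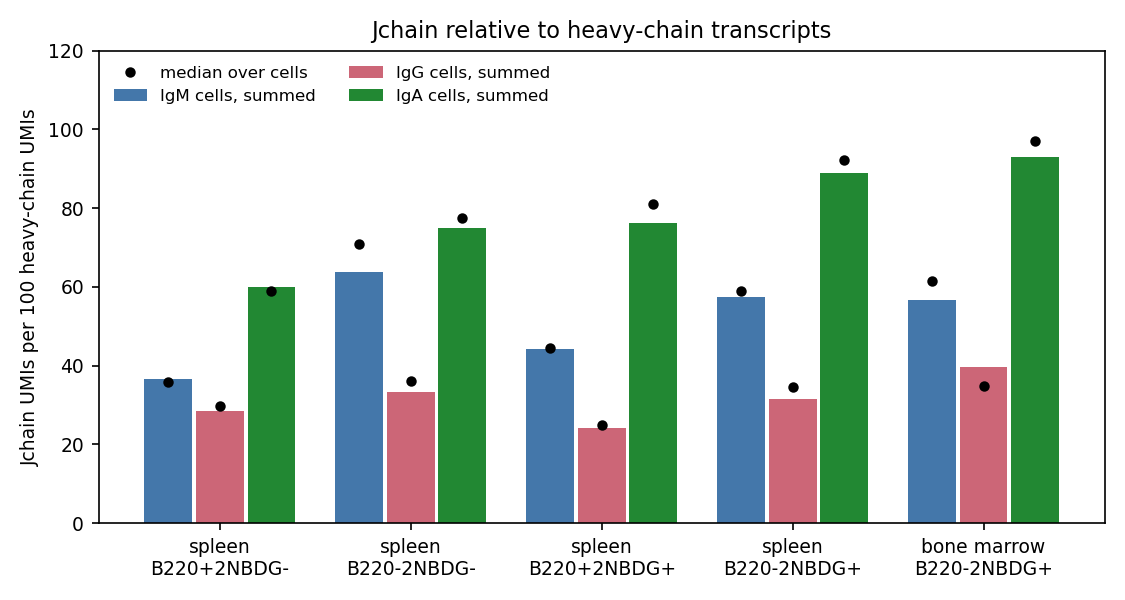
Jchain UMIs per 100 heavy-chain constant UMIs (vertical axis) by library (horizontal axis) and isotype; bars are sums over cells and black points medians over cells. In each library the IgA bar is the highest (60.0 to 93.0) and the IgG bar the lowest (24.2 to 39.8).

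The relation between Jchain and heavy chain within cells varied between sets of cells. Spearman correlations between a cell's Jchain share and its heavy-chain UMIs per other UMI (neither immunoglobulin nor Jchain) were 0.74 and 0.80 in the IgA cells of B220+2NBDG- (77 cells) and B220-2NBDG- (135). They were 0.54 and 0.13 in the IgM cells of these libraries, and -0.11 to 0.11 in the IgM cells of the 2NBDG+ libraries. The IgA cells of the 2NBDG+ libraries had 0.51 in B220+2NBDG+, 0.18 in bone marrow and 0.12 in splenic B220-2NBDG+. The IgG cells had 0.60 in B220+2NBDG-, 0.40 in B220-2NBDG- and 0.040 to 0.30 in the 2NBDG+ libraries. These are descriptions over cells of 1 library, whose points share the library and the denominators. Jchain share was lower in cells with more other UMIs in all 15 sets of cells (rho -0.77 to -0.47); the other UMIs are themselves part of the denominator of the share.

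IgG subclasses also differed within libraries, with few cells in some of them, and they kept no common order. In B220+2NBDG- cells the share was 8.46% in IgG1 (10 cells), 7.42% in IgG2b (100), 8.29% in IgG2c (252) and 5.26% in IgG3 (55). In B220-2NBDG- cells it was 18.5% (5), 15.2% (24), 14.3% (30) and 10.6% (15) in the same order, so IgG3 was lowest in both 2NBDG- libraries. In B220+2NBDG+ cells it was 13.1% (32), 14.5% (135), 14.5% (309) and 14.1% (76), the narrowest range of the 5. The splenic B220-2NBDG+ cells had 8.98% (7), 17.0% (44), 18.3% (50) and 14.3% (16), and the bone marrow cells 12.3% (25), 17.7% (34), 12.6% (21) and 14.0% (4). IgG1 was lowest in all 3 2NBDG+ libraries. These differences were not tested. Light chain was called in cells with at least 10 UMIs of the constant genes Igkc and Iglc2 together. A cell was called kappa when at least 70% of these were Igkc, and lambda when at least 70% were Iglc2. Other lambda constant genes were not counted, so lambda cells that use them could be left out or called kappa. By this rule the share differed little where both kinds were numerous: in IgM cells of B220-2NBDG-, 914 kappa cells had 24.6% and 113 lambda cells 24.3%. Jchain per 100 heavy-chain UMIs was 62.1 and 76.6 in these kappa and lambda cells. Where lambda IgM cells were few, their share was higher. It was 16.7% in 12 lambda against 11.5% in 686 kappa cells of B220+2NBDG-, and 33.7% in 13 against 25.2% in 536 of splenic B220-2NBDG+. Jchain per 100 heavy-chain UMIs was also higher in these lambda cells (48.9 against 36.5, and 105 against 57.1).

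Cycling cells had several-fold less Jchain. The cycling class held cells with 3 or more UMIs of a 47-gene cell cycle list among 1000 UMIs drawn from those that were neither immunoglobulin nor Jchain; 225 cells had too few and were left out. Jchain took 3.50% of non-immunoglobulin UMIs in 174 cycling and 12.4% in 1003 other B220+2NBDG- cells. It took 5.97% in 16 cycling and 23.1% in 1177 other B220-2NBDG- cells, and 5.89% in 13 cycling and 19.4% in 1074 other B220+2NBDG+ cells. The cycling cells were thus 3.54-, 3.87- and 3.30-fold lower, though single cells overlapped (0.138% to 34.7% and 0.113% to 56.8% in B220+2NBDG-). The splenic B220-2NBDG+ library had 3 cycling cells, at 17.8% to 52.2%, which were not low, and the bone marrow library had none among 918.

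In edgeR with the library as a block, over the 3 libraries with at least 10 cells of each class, Jchain fell by 2.13 on the log2 scale (SE 0.13, adjusted p = 6.18e-61), and 20.9% of 8763 genes passed. That p-value rests on a spread shared over genes, not on the spread of Jchain between 3 libraries alone. The mean log2 ratio of shares was -1.83 ± 0.11 (SD), lower in 3 of 3 libraries; the exact sign-flip p was 0.25, the smallest that 3 libraries allow. With all UMIs as the total the change was -1.08 (adjusted p = 0.00112), and with a threshold of 2 cell cycle UMIs -0.84 (adjusted p = 6.81e-05). The share was lower in each isotype of B220+2NBDG-, the library with 84, 77 and 11 cycling IgM, IgG and IgA cells. The shares were 3.93% against 13.9% in IgM, 2.88% against 10.1% in IgG and 4.71% against 12.6% in IgA cells. In B220-2NBDG- it was also lower in each isotype, with 8, 3 and 4 cycling cells. In B220+2NBDG+ the fall was mainly in IgG cells: 9 cycling IgG cells were at 4.23% against 14.6%, and 4 cycling IgM cells at 13.6% against 22.0%.

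By bins of cell cycle UMIs, the level was similar below the threshold of 3 and lower above it. Such wide bins, with an edge at the threshold, cannot tell a step from a gradual fall. In B220+2NBDG- the share was 12.6% with 0 cell cycle UMIs, 12.0% with 1 to 2, 3.23% with 3 to 9 and 3.82% with 10 or more. Cycling cells of B220+2NBDG- also held more RNA, with a median of 13590 against 9651 UMIs in all. The difference was wider in the UMIs that were neither immunoglobulin nor Jchain (9207.5 against 3648), since immunoglobulin took 25.8% against 52.3% of their UMIs. The median cell held 296.5 Jchain UMIs when cycling and 506 when not, and 931.5 against 1444 heavy-chain UMIs. Jchain per 100 heavy-chain UMIs was therefore closer between the classes than the share: 31.1 against 34.6 in B220+2NBDG-, 59.0 against 60.7 in B220-2NBDG- and 22.9 against 36.1 in B220+2NBDG+. The part of RNA content in the fall was not tested.

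**Figure D4:**
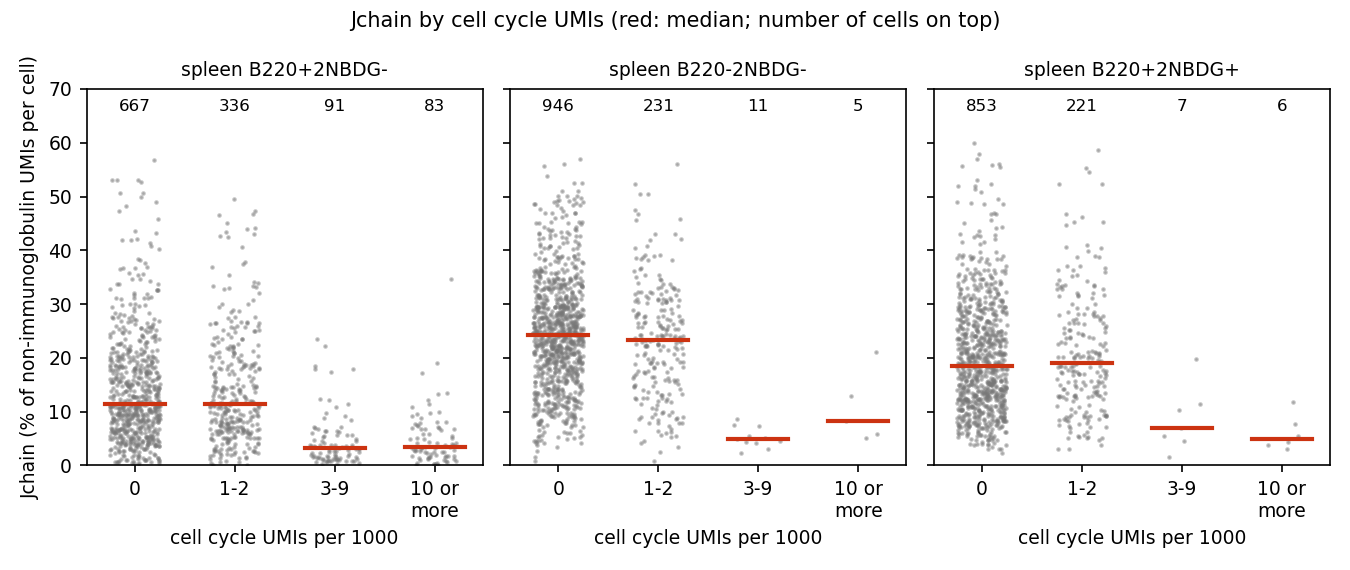
Share of non-immunoglobulin UMIs that were Jchain (vertical axis, %) against the number of cell cycle UMIs per 1000 (horizontal axis) in the 3 libraries with at least 10 cycling cells; points are cells, red lines medians, and numbers on top count cells. Cells with 3 or more cell cycle UMIs sit low in all 3 panels, while those with 1 to 2 resemble those with 0.

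Between libraries, Jchain was higher with 2NBDG uptake and lower with B220. The share was 1.93-fold higher in 2NBDG+ than in 2NBDG- cells of the B220+ spleen (exact 95% interval 1.92 to 1.93) and 1.17-fold higher in the B220- spleen (1.17 to 1.17). B220+ cells were 1.40-fold below B220- cells among 2NBDG+ (1.39 to 1.40) and 2.30-fold below among 2NBDG- (2.29 to 2.30). Of these, the last was past 2-fold, as were 9.04% of 4016 genes in that comparison; in the others 5.78%, 3.01% and 3.93% of genes were, in the order given. Bone marrow was 1.10-fold above the B220-2NBDG+ spleen (1.10 to 1.10), a comparison in which 2.61% of genes were past 2-fold. With all UMIs as the total, the difference by 2NBDG in the B220+ spleen was 1.28-fold. These comparisons share libraries and are not independent.

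The differences between libraries were not of 1 size across isotypes. Without cycling cells, the ratio of 2NBDG+ to 2NBDG- in the B220+ spleen was 1.59 in IgM, 1.45 in IgG and 2.61 in IgA cells. In the B220- spleen it was 1.03, 1.11 and 2.03, so the IgM and IgG cells differed little there and the IgA cells differed 2.03-fold. For B220+ against B220- the ratios were 0.873, 0.891 and 0.907 among 2NBDG+ and 0.568, 0.684 and 0.705 among 2NBDG- cells. Bone marrow against spleen gave 0.862, 0.877 and 1.03; bone marrow IgM and IgG cells were thus below their splenic counterparts, although the whole library was above. These ratios were not tested. Of the bone marrow cells 553 of 937 were IgA, against 214 of 894 in the spleen.

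**Figure D5:**
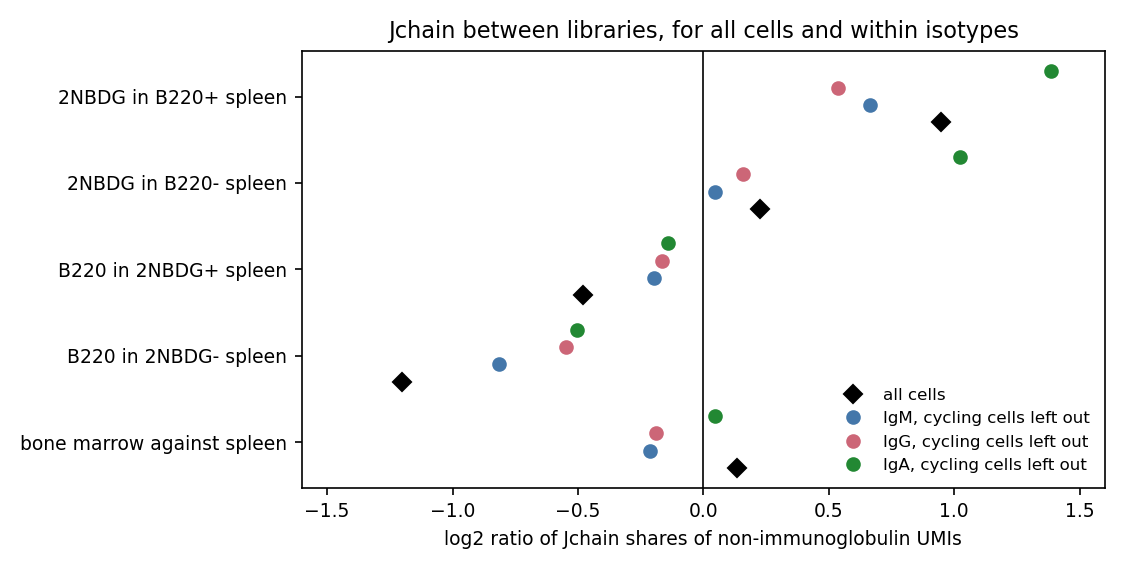
Log2 ratio of Jchain shares of non-immunoglobulin UMIs (horizontal axis) for 5 pairs of libraries (vertical axis); diamonds are all cells, circles are IgM, IgG or IgA cells without cycling cells. IgA cells show the largest ratios to 2NBDG (1.38 and 1.02), and IgM and IgG cells of the bone marrow lie below 0 (-0.21 and -0.19) where all cells lie above it (0.13).

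Cells with little Jchain were found almost wholly in the B220+2NBDG- library. After each cell was thinned to 1000 non-immunoglobulin UMIs, 103 of 1206 B220+2NBDG- cells (8.54%, exact Clopper-Pearson 95% interval 7.02 to 10.3) had a share under 2%. There were 3 of 1279 in B220-2NBDG- (0.235%, 0.0484 to 0.684) and 1 of 1116 in B220+2NBDG+ (0.0896%, 0.00227 to 0.498). The count was 0 of 892 in splenic B220-2NBDG+ and 0 of 934 in bone marrow, which allow up to 0.336% and 0.321% of cells by the limit of 3 counts (exact upper bounds 0.413% and 0.394%). Without thinning there were 105 such B220+2NBDG- cells (8.67%), 3, 1, 0 and 0. Of the 103 cells, 55 were cycling and 48 were not. Cells near the threshold, between 1% and 3%, numbered 110, 5, 5, 1 and 5 in the order of the libraries above.

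T cell-like cells, which should lack the gene, gave a measure of background. Of the 16, 7 held few immunoglobulin UMIs (17 to 47), and Jchain took 0.0372% to 0.537% of their non-immunoglobulin UMIs (median 0.0672%). The other 9 held 1705 to 11653 immunoglobulin UMIs and 4.03% to 26.8% Jchain. The 7 came from B220+2NBDG- (6) and B220-2NBDG- (1), so this level was not measured in the 2NBDG+ libraries. These 7 cells held 3 to 17 Jchain UMIs each, so a few Jchain UMIs do not show that a cell expresses the gene. Several B220+2NBDG- plasma cells lay within this background range, among them the lowest IgG (0.113%), IgM (0.127%) and cycling cell (0.138%). Their number was not counted, and after thinning 44 of 1206 cells of that library were under 1%. The medians of all libraries lay well above the range.

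Genes of antibody folding and assembly in the endoplasmic reticulum did not move with Jchain as a group. Of 24 tested, 8 were higher and 1 lower in IgG than in IgM cells (median log2 change 0.23, against 0.00 over all genes), and Jchain itself was lower. Over all genes, 2.49% were higher and 3.66% lower. Mzb1, a chaperone cofactor of IgM assembly, was higher by 0.47 (SE 0.10, adjusted p = 0.00548), as were Hsp90b1, an endoplasmic reticulum chaperone (0.70), and Erp44, which retains unassembled IgM subunits (0.55). Each of these calls was kept in all 5 fits with a library left out. Under the other alternatives, Mzb1 and Erp44 were called in 7 of 9 and Hsp90b1 in 8 of 9. The gene that was lower was Txndc5, a protein disulfide isomerase, by -1.33 (SE 0.14, adjusted p = 2.44e-06). Txndc5 was also higher in IgA than in IgG cells (1.15, SE 0.14, adjusted p = 8.97e-06), the same directions as Jchain. For IgA against IgG, 3 of 24 were higher and 8 lower (median -0.21, against 0.00), and for IgA against IgM 4 were higher and 3 lower (0.10, against -0.00). Over all genes 4.66% were higher and 4.93% lower in the first of these comparisons and 6.27% and 6.85% in the second. These adjusted p-values and those in the next paragraphs are from edgeR over all genes tested.

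Of the list of regulators, which holds transcription factors of B cells and plasma cells, 18 of 23 were tested by isotype. For IgG against IgM, 0 were higher and 5 lower (median -0.00, against 0.00), while over all genes 2.49% were higher and 3.66% lower. Pou2af1, a coactivator of octamer-binding factors, was lower by -0.67 (SE 0.10, adjusted p = 0.000207) and Ikzf3, a plasma cell zinc finger factor, by -0.58 (SE 0.11, adjusted p = 0.00243). Usf2 was lower by -0.70 (SE 0.20, adjusted p = 0.0335), a call kept in only 1 of 5 fits with a library left out. Prdm1, the plasma cell regulator Blimp-1, was lower by -0.49 (adjusted p = 0.0410), a call lost with any 1 library left out (adjusted p 0.0694 to 0.171). Ets1 was higher in IgA cells by 1.72 over IgM and 1.77 over IgG (adjusted p = 1.47e-07 and 2.54e-06). In all, 1 was higher and 3 lower in IgA than in IgM cells (median -0.09, against -0.00), and 3 were higher and 4 lower in IgA than in IgG cells (0.09, against 0.00). Over all genes 6.27% were higher and 6.85% lower in the first of these comparisons and 4.66% and 4.93% in the second. Pou2af1 was lower in IgA than in IgM cells (-0.37, adjusted p = 0.0167), where Jchain itself was not called; this call was lost without B220+2NBDG+, without splenic B220-2NBDG+ and without bone marrow (adjusted p = 0.0650, 0.0694 and 0.141) and with all UMIs as the total (0.328). Irf4 passed in none of the 3 isotype comparisons, with changes between -0.19 and 0.089. Xbp1, the regulator of the secretory program, was at 0.31 for IgG against IgM cells (adjusted p = 0.0644) and lower in IgA than in IgG cells (-0.37, adjusted p = 0.0168). The latter call was lost without B220+2NBDG- or splenic B220-2NBDG+ (adjusted p = 0.0912 and 0.0580), with all UMIs as the total (0.275) and with immunoglobulin and Jchain out of it (0.0796).

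In cycling cells, 7 of 24 folding genes were lower and 2 higher (median -0.06, the same as over all genes), and 6 of 19 regulators were lower and 0 higher (-0.69). Over all genes 10.2% were lower and 10.7% higher. Xbp1 was lower by -0.84 (SE 0.13, adjusted p = 3.53e-09), Txndc5 by -0.95 (SE 0.14) and Pou2f2, an octamer-binding factor, by -1.46 (SE 0.28). With all UMIs as the total, Xbp1 and Txndc5 turned to 0.20 and 0.089, while Jchain stayed lower, as given above, and Pou2f2 was at -0.55 (adjusted p = 0.140). That total moved the median of all genes by 0.91.

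Of the receptors and partners of polymeric antibodies, 1 of 5 was tested. Fcmr, the IgM Fc receptor, was at 96.8, 60.4, 64.3, 31.1 and 8.51 CPM in the libraries in the order above, the reverse of the order of Jchain. Fcmr was lower in IgA than in IgM cells by -3.12 (SE 0.43, adjusted p = 1.92e-05) and in cycling cells, where Jchain was lower too, by -1.37 (SE 0.27). In IgG against IgM cells it had the direction of Jchain but was not called (-0.40, SE 0.27, adjusted p = 0.473). The libraries differ in their share of IgA cells, and the part of this in the order of Fcmr was not tested. Pigr, the polymeric immunoglobulin receptor, was at 0 to 1.27 CPM.

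The genes whose levels were most like that of Jchain were ranked over the 15 sums of library and isotype, among 4058 genes with at least 25 CPM on average. The highest Pearson correlations were those of Bbs9 (0.94), Exosc5 (0.93), Tnfrsf13b, which encodes the receptor TACI (0.92), Selenow (0.92) and the mitochondrial gene mt-Cytb (0.91). Among the lowest were those of Rbmxl1 (-0.90), Cks2 (-0.90), Nop58 (-0.88) and Cks1b (-0.88); Cks1b and Cks2 encode subunits of cyclin-dependent kinases. Tnfrsf13b ranged from 203 to 736 CPM and Cks2 from 8.00 to 168 CPM. The sums share libraries and depth, and 5% of all genes lay above 0.72 and 5% below -0.61. Over single non-cycling IgM cells within a library, the correlations were weaker and led by other genes: the highest median Spearman values among 541 genes were those of Ubb (0.38), mt-Atp6 (0.32) and H3f3b (0.29), and the lowest those of Tpt1 (-0.25) and Rpl10 (-0.25).

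The genes around Jchain did not share its level. Of the 7 other protein-coding genes that start within 200 kb, Utp3, which starts 26.6 kb away, had 71.0, 41.8, 38.6, 35.4 and 29.8 CPM in the libraries in the order above, highest where Jchain was lowest. Grsf1 (21.4 to 27.0 CPM), Mob1b (6.67 to 11.3 CPM) and Rufy3 (4.19 to 6.92 CPM) varied less than 2-fold. Enam, Amtn and Ambn, genes of tooth enamel, lay at 0 to 0.709 CPM.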

How the data were processed

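The authors deposited raw UMI counts per gene and cell barcode from the 10x Genomics 3' kit, version 2, per the labels' protocols. Cell Ranger 2.1 and GRCm38 are named in the submitters' processing notes. No source used here gives the annotation or the barcode filter. A 3' library counts transcript ends, and reads shared by near-identical genes can be lost. From these counts, barcodes with at least 500 UMIs, at least 200 genes and under 10% mitochondrial UMIs were kept. Cells with at least 5 UMIs of Cd3d, Cd3e, Cd3g, Trac, Trbc1 and Trbc2 together were called T cell-like. Of 33456 gene identifiers, 32655 matched GENCODE M21, which gave 266 immunoglobulin genes; some genes are not reported here. Scrublet in scanpy 1.11.5 marked 77 cells (1.41%) as doublets; they stayed in, and an alternative left them out. Isotype (70% dominance), cycling (3 of 1000 UMIs) and little Jchain (under 2%) were called as described.

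Counts summed over at least 10 cells were tested in edgeR 4.0.16 (R 4.3.3) with the library as a block, non-immunoglobulin library sizes, TMM, filterByExpr and an adjusted p under 0.05; an SE is the log2 change divided by the square root of F. The scripts were tested on simulated data. Alternatives were DESeq2 1.42.0, other totals, filters, thresholds and cells, and each library left out. The text names Jchain, some list members from those with the largest called changes (up to 6 per list), and Mzb1, Pax5, Prdm1, Xbp1, Irf4 and Pou2af1. It also names neighbours within 200 kb and genes among the 5 most and 5 least like Jchain. Rps18-ps3, Malat1, Pigr and Anxa2 were named after their values were seen. Jchain, the lists and the tests were chosen with earlier results of these data known.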

Additional observations from a re-analysis of the deposited data

Results flagged for a closer look

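The difference in Jchain between IgA and IgM cells was not the same in libraries with and without 2NBDG uptake. Its log2 value was higher by 1.21 in the 3 2NBDG+ libraries than in the 2 2NBDG- libraries by the interaction term in edgeR, a test chosen after the values were seen. All 3 2NBDG+ libraries had more Jchain in IgA cells and both 2NBDG- libraries had less, as a share of non-immunoglobulin UMIs. As a share of all UMIs, B220+2NBDG- had more in IgA than in IgM cells (6.74% against 5.95%), and the interaction was 0.56. Per 100 heavy-chain UMIs, IgA cells were above IgM cells in every library. In the 2NBDG- libraries this was 60.0 against 36.7 in B220+2NBDG- and 74.9 against 63.7 in B220-2NBDG-.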

How the results depend on the processing

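The ratios between libraries are for 2NBDG+ over 2NBDG- among B220+ cells and then among B220- cells, for B220+ over B220- with tracer uptake and then without it, and for bone marrow over spleen, in this order. They were 1.28, 1.33, 0.603, 0.629 and 1.01 with all UMIs as the total; 2.15, 1.23, 0.648, 0.372 and 1.14 without immunoglobulin and Jchain in it; and 2.09, 1.23, 0.665, 0.391 and 1.22 with a TMM-scaled total. Means over cells gave 1.56, 1.12, 0.734, 0.528 and 1.13, and medians 1.76, 1.10, 0.696, 0.434 and 1.20. IgM cells alone gave 1.91, 1.03, 0.877, 0.472 and 0.860, equal weight of isotypes 2.32, 1.39, 0.883, 0.531 and 0.934, and leaving out cycling cells 1.57, 1.16, 0.726, 0.538 and 1.10. Without doublets they were 1.92, 1.17, 0.719, 0.437 and 1.11. The bone marrow ratio alone changed direction, under 2 of these settings. The share of B220+2NBDG- cells with little Jchain was 3.65% under a threshold of 1% and 22.8% under 5%. Under 5% the bone marrow had 2.14%, splenic B220-2NBDG+ cells had 0.673%, B220-2NBDG- cells 1.80% and B220+2NBDG+ cells 2.87% (0% under a threshold of 1%). Medians over cells of Jchain per 100 heavy-chain UMIs, for IgM, IgG and IgA, were 61.5, 35.0 and 97.1 in bone marrow, 59.0, 34.6 and 92.2 in splenic B220-2NBDG+, 44.5, 24.9 and 81.0 in B220+2NBDG+, 71.0, 36.0 and 77.5 in B220-2NBDG-, and 36.0, 29.8 and 58.9 in B220+2NBDG- cells.

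For IgG against IgM cells, the log2 change was -0.68 with DESeq2 and -0.68 with no replicate block, neither called; it was -0.74 to -0.62 with each library left out and called each time. IgA against IgG was 1.09 with DESeq2 and 1.23 with no replicate block, neither called, and 0.98 to 1.25 with each library left out. IgA against IgM was called at 0.34 with no filter on low counts, and ranged from 0.24 to 0.62 with each library left out. Cycling against non-cycling was called under all 13 alternatives, at -2.21 to -2.004 with each of 3 libraries left out; in cells of 1 isotype it could not be fitted, since only 1 library had 10 cells of both classes. The replicate block is the library, which gave cells of every class. The interaction of IgA with 2NBDG was called under all 11 alternatives (0.56 to 1.40), and that of IgG turned to -0.020 with all UMIs as the total. These alternatives refit the same libraries with a term chosen after the ratios were seen, so they are no independent check. In cycling cells all UMIs as the total also turned Txndc5 (0.089), Ero1lb (0.011), Dnajb9 (0.23), Sel1l (0.32), Derl3 (0.32), Txndc11 (0.45), Xbp1 (0.20) and Mef2c (0.28). Apart from the shifts these totals make by construction, the causes were not tested.

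Counts of genes called moved more. For IgG against IgM, 489 became 736 without a filter, 276 with all UMIs, 64 with no replicate block, 222 without B220+2NBDG+ and 302 without splenic B220-2NBDG+. With no replicate block, 1042 became 394 for IgA against IgM and 762 became 307 for IgA against IgG, which also fell to 482 without B220+2NBDG- and 475 without B220+2NBDG+. For cycling cells, 1830 became 846 with DESeq2, 4141 with all UMIs, 716 without B220+2NBDG-, and 907 and 945 with thresholds of 2 and 5. For the IgA interaction, 178 became 1784 with all UMIs, 314 without TMM, 63 without B220-2NBDG-, 93 without splenic B220-2NBDG+ and 92 without bone marrow. For the IgG interaction, 0 became 1 without B220+2NBDG-, 6 without B220-2NBDG- and 6 without B220+2NBDG+. Higher and lower calls were 198 and 291 for IgG against IgM (154 and 481 without immunoglobulin and Jchain in the total, 16 and 48 with no replicate block), and 498 and 544 for IgA against IgM (321 and 848 without TMM). They were 370 and 392 for IgA against IgG (223 and 648 without TMM, 613 and 259 without immunoglobulin and Jchain), 935 and 895 for cycling cells (1587 and 606 without TMM, 4034 and 107 with all UMIs) and 84 and 94 for the interaction (39 and 275, 32 and 1752). The median of all genes moved by -0.69 with all UMIs and -0.28 without TMM in the interaction of IgA, by -0.18 with all UMIs in that of IgG, by -0.16 (IgA against IgG) and -0.12 (IgA against IgM) without TMM, and by 0.21 without TMM in cycling cells. The cycling classes of 2 libraries rest on 13 and 16 cells.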

Other observations

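IgA cells of the 2NBDG- libraries were also divided by Anxa2, which encodes annexin A2, counted among 1000 UMIs that were neither immunoglobulin nor Jchain. In B220-2NBDG- cells, Jchain took 11.1% of non-immunoglobulin UMIs in 35 IgA cells with an Anxa2 UMI (median cell 11.4%) and 19.7% in 91 without (19.4%). In B220+2NBDG- cells it took 7.88% in 34 IgA cells with an Anxa2 UMI (8.15%) and 12.7% in 38 without (15.1%). Of the 2NBDG+ libraries, B220+2NBDG+ had 3 IgA cells with an Anxa2 UMI, bone marrow 2 and splenic B220-2NBDG+ 2. The IgA cells without one in these libraries were at 33.3%, 37.4% and 36.3%, above those of the 2NBDG- libraries. Jchain per 100 heavy-chain UMIs was closer between cells with and without Anxa2: 69.9 and 74.5 in B220-2NBDG-, and 56.0 and 61.7 in B220+2NBDG-. These values were looked at after the difference by 2NBDG was seen, were not tested, and cells of 1 library are not replicates.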
